A study of Arabidopsis thaliana with 15 samples.

Results

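The SAUR (SMALL AUXIN UP RNA) genes of Arabidopsis thaliana were described in seedlings treated with abscisic acid (ABA) or dried in air. They were taken as every row whose annotation reads "SAUR-like auxin-responsive protein", which gave 72 genes of the 22526 rows in the deposited tables. All seedlings were wild type of the Columbia accession and were 14 days old, and they had spent a day in liquid medium beforehand. One set of treated seedlings received 20 µM ABA (from a methanol stock) in the liquid medium for 1 h or for 3 h, and the other was lifted out and dried on filter paper in the light, again for 1 h or for 3 h. The control was harvested untreated, before either treatment began, so each comparison with it also spans the time and handling in between, and these cannot be told apart from the treatment. Polyadenylated RNA of whole seedlings was sequenced in 15 strand-specific libraries, 3 per condition, and the tables hold 1 combined column per condition. No difference therefore has a replicate check, no test between conditions could be run, and the brackets given with ratios are 95% counting intervals, which cover counting error only.

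Auxin is the plant hormone of cell expansion, and SAUR genes are among the first whose transcripts accumulate after auxin is applied. Their products are small proteins, best known from the SAUR19 group, that bind and inhibit phosphatases of the PP2C clade D. These phosphatases keep plasma membrane proton pumps switched off, so SAUR proteins favour acidification of the cell wall and growth. Their transcripts and proteins are typically short-lived. ABA is the hormone that accumulates when water is short, and it slows growth while it closes the stomata.

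SAUR numbers were given to 71 of the 72 genes by the tables or by RefSeq, and AT1G29490 is called by its locus code, because RefSeq gives it the same number as the gene the tables name SAUR68. RefSeq also gives SAUR numbers to 2 rows whose annotation does not carry that phrase, and these are not among the 72. In the RefSeq annotation 70 of the 72 have a single coding exon, and coding lengths ran from 261 to 573 nt with a median of 363 nt. Many SAUR genes lie next to each other: 38 formed 9 arrays in which at most 5 other protein-coding genes separate a member from the next, and 34 lay outside arrays. In coding sequence, 8 members were at least 90% identical to their nearest relative, namely the SAUR19 to SAUR24 group and the pair SAUR62 and SAUR75, so reads between these copies may be split. Levels are given as CPM (reads per 1e6 reads of the column, scaled by TMM factors) within a gene, and as FPKM, which allows for gene length, between genes. Lists of 4 values run in the order ABA at 1 h and 3 h, then dehydration at 1 h and 3 h. A gene was called measured at a mean of at least 1 CPM over the 5 columns, which held for 43 members and for 18877 rows in all. SAUR7, SAUR34 and SAUR35 were under 1 CPM in the control and passed through treated columns. SAUR13 and SAUR23 were under 1 CPM in every treated column and passed through the control.

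SAUR transcripts were lower as a group in every treated column. The 72 members summed to 286 CPM after ABA 1 h, 307 CPM after ABA 3 h, 301 CPM after dehydration 1 h and 289 CPM after dehydration 3 h, against 538 CPM in the control. A single gene carried much of the control sum, SAUR78, which with SAUR76 and SAUR77 is known to interact with ethylene receptors. Without it the sums were 227, 267, 273 and 276 CPM in the same order, against 392 CPM in the control. The median member stood at 1.01 CPM after ABA 1 h, 0.754 CPM after ABA 3 h, 0.882 CPM after dehydration 1 h and 0.690 CPM after dehydration 3 h, against 2.33 CPM in the control. In whole seedlings, fewer cells that express a gene and less RNA per cell cannot be told apart.

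The most abundant SAUR transcripts also changed places. By FPKM, SAUR78 led after ABA 1 h (122), followed by SAUR6 (66.6) and SAUR16 (37.2). After ABA 3 h SAUR78 (84.1) was followed by SAUR30 (70.9) and SAUR6 (55.2), and SAUR30 was not among the 6 highest in the control. SAUR6 led after dehydration 1 h (157) and after dehydration 3 h (121), where SAUR78 was sixth at 27.8. In the control SAUR78 led at 307, ahead of SAUR6 (85.8), SAUR32 (60.8), SAUR16 (57.9), SAUR1 (57.7) and SAUR50 (53.8).

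Set against the control, more of the 43 measured members were at least 2-fold lower than higher, at both times and after both treatments. After ABA 1 h 2 of 43 were higher and 19 lower, where 4.46% and 5.24% of all measured genes were. After ABA 3 h 5 were higher and 25 lower, against 9.02% and 7.88% of all measured genes. Dehydration 1 h gave 3 higher and 19 lower (all genes 7.49% and 5.85%), and dehydration 3 h gave 5 higher and 26 lower (all genes 10.4% and 6.57%). The share of members that were higher was close to that of all genes in each comparison, and the share lower was 44.2%, 58.1%, 44.2% and 60.5% in the same order. The 3 higher after dehydration 1 h were SAUR7, SAUR34 and SAUR35, and the 5 higher after dehydration 3 h include the same genes. These 3 genes passed the filter only through treated columns, and SAUR35 is also among the 5 higher after ABA 3 h. SAUR13 and SAUR23 passed it only through the control, and both are among the lower members in each of the 4 comparisons. The counts of higher and of lower members are thus not independent of the filter. The 4 comparisons share the control column and are not independent.

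The median log2 ratio of the measured members was -0.93 at 1 h and -1.48 at 3 h of ABA, and -0.84 at 1 h and -1.45 at 3 h of dehydration. Over all measured genes the medians were 0.01, 0.00, -0.03 and -0.03 in the same order. The middle of the family thus lay below the middle of the transcriptome by close to 1 log2 unit at 1 h and by more at 3 h. With a floor of 5 mean CPM, which leaves 18 members, the medians were smaller in size, at -0.59, -0.50, -0.51 and -0.27. Under that floor 4 members were lower and 1 higher at 1 h of ABA and 4 lower and 3 higher at 3 h, and 6 were lower and 1 higher at 1 h of dehydration and 7 lower and 3 higher at 3 h.

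**Figure D1:**
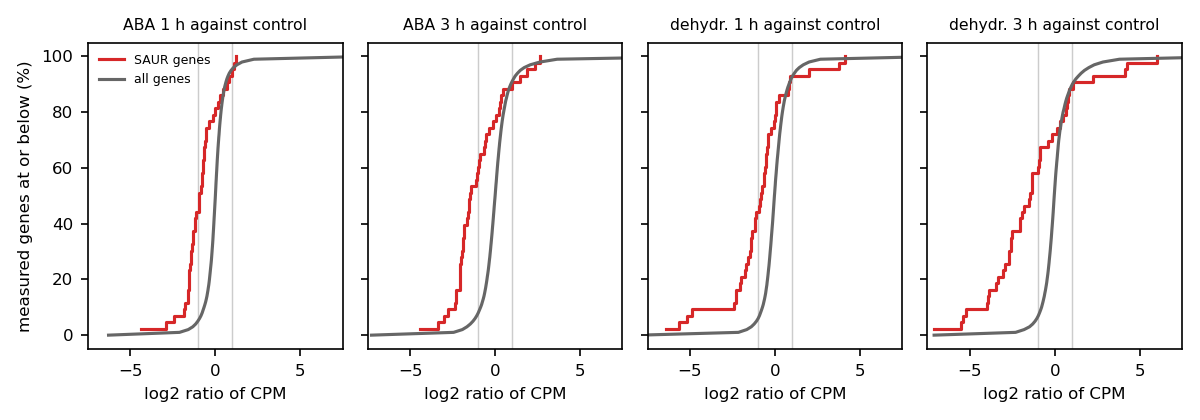
Cumulative share of genes (percent, vertical axis) at or below a log2 ratio of CPM (horizontal axis), for the 43 measured SAUR genes in red and all measured genes in grey, with 1 panel per treatment and time against control. The grey vertical lines mark 2-fold, and the red curve lies left of the grey one through most of its range, with a right-hand tail after dehydration that reaches 6.05.

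Members inside and outside arrays gave different counts. Of the 27 measured members in arrays, 15 were at least 2-fold lower after ABA 1 h and none higher, and 21 were lower after ABA 3 h and none higher. After dehydration 1 h 14 of these 27 were lower and 1 higher, and after dehydration 3 h 21 were lower and 2 higher. Their median log2 ratios were -1.29, -1.89, -1.11 and -2.50 in that order of conditions. The 1 higher after dehydration 1 h was SAUR7, which is also among the 2 after dehydration 3 h and passed the filter only through treated columns. SAUR13 and SAUR23, which were lower in each of these comparisons, passed the filter only through the control.

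Outside arrays the 16 measured members were mixed. After ABA 1 h 4 were lower and 2 higher, after ABA 3 h 4 lower and 5 higher, after dehydration 1 h 5 lower and 2 higher, and after dehydration 3 h 5 lower and 3 higher. Their medians were -0.37, 0.14, -0.45 and 0.24. The 2 higher after dehydration 1 h were SAUR34 and SAUR35, which are also among the 3 higher after dehydration 3 h. Both passed the filter only through treated columns, and SAUR35 is also among the 5 higher after ABA 3 h. Among all measured genes 5.24%, 7.88%, 5.85% and 6.57% were lower and 4.46%, 9.02%, 7.49% and 10.4% higher, which sets the scale for counts of 2 to 5 among 16. By summed reads the order of the sets was not always the same, because a few abundant genes weigh most: after dehydration 1 h the arrays summed to 183 CPM against 275 CPM in the control, and the members outside arrays to 118 CPM against 263 CPM in the control.

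**Figure D2:**
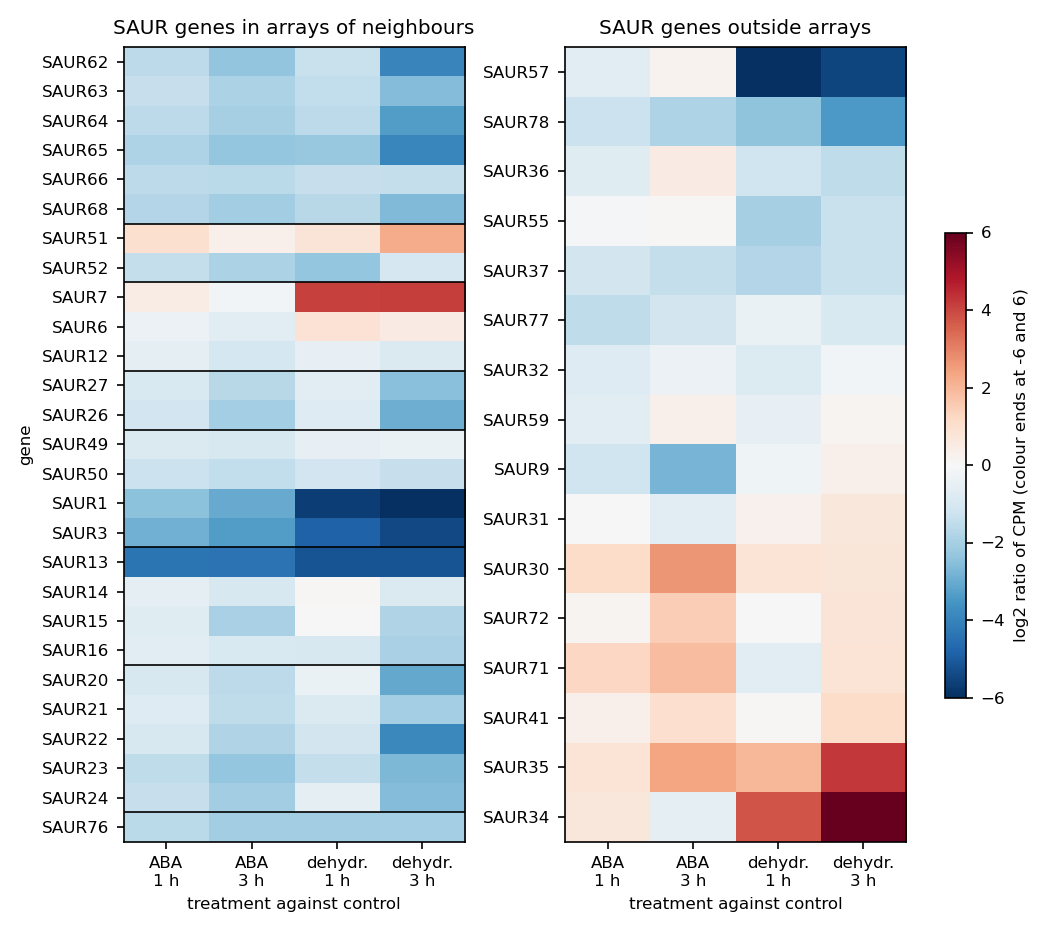
Log2 ratio of CPM against control for the 43 measured SAUR genes (rows), 27 in arrays on the left with black lines between arrays and 16 outside arrays on the right, with both ABA columns before both dehydration columns and 1 h before 3 h. Blue is lower and red higher than control, and most of the left panel is blue while the right panel holds both colours; colours end at -6 and 6 although SAUR1 reached -7.11.

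The array from SAUR49 to SAUR5 on chromosome 4 held SAUR1 and SAUR3, which were among the 4 lowest measured members in each of the 4 comparisons. SAUR1 was at 4.84 CPM after ABA 1 h, 3.25 CPM after ABA 3 h, 0.523 CPM after dehydration 1 h and 0.191 CPM after dehydration 3 h, against 26.3 CPM in the control. SAUR1 was the lowest member after dehydration 3 h, with a log2 ratio of -7.11 (-7.64 to -6.62), on 34 reads against 4630 in the control. No measured gene in the table had a lower ratio in that comparison. The ratio of SAUR1 after ABA 3 h was -3.02 (-3.14 to -2.90).

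SAUR3, which lies next but one to SAUR1, had a similar course. It was at 1.45 CPM after ABA 1 h, 1.04 CPM after ABA 3 h, 0.371 CPM after dehydration 1 h and 0.252 CPM after dehydration 3 h, against 10.8 CPM in the control. The log2 ratios were -2.90 (-3.10 to -2.70), -3.37 (-3.59 to -3.16), -4.86 (-5.22 to -4.52) and -5.42 (-5.88 to -4.99). Both genes were thus lower after dehydration than after ABA at each time. SAUR5 at the end of the array averaged under 1 CPM and was also low in every treated column, with 28, 20, 57 and 38 reads against 519 in the control.

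The first genes of the same array differed from SAUR1 and SAUR3. SAUR50, which promotes the opening of cotyledons when dark-grown seedlings meet light, was at 10.6, 9.28, 11.7 and 10.03 CPM, against 25.9 CPM in the control, and its log2 ratios ran from -1.48 to -1.15. SAUR49, reported to promote leaf senescence, was at 5.76, 5.45, 7.39 and 8.06 CPM, against 10.5 CPM in the control, and did not reach 2-fold in any of the 4 comparisons. SAUR2 and SAUR4, on either side of SAUR3, were under the limit for measured genes, with at most 7 and 176 reads in any column.

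The array from SAUR13 to SAUR16, also on chromosome 4, was led by SAUR13. SAUR13 was at 0.522 CPM after ABA 1 h, 0.501 CPM after ABA 3 h, 0.293 CPM after dehydration 1 h and 0.292 CPM after dehydration 3 h, against 10.7 CPM in the control. Its log2 ratios were -4.36 (-4.69 to -4.05), -4.42 (-4.73 to -4.13), -5.19 (-5.60 to -4.81) and -5.20 (-5.63 to -4.80), so the ratios at 1 h and at 3 h nearly coincided. SAUR13 overlaps a gene on the opposite strand, and the strand setting of the counting is not given, so its reads are uncertain.

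The neighbours of SAUR13 stood much closer to the control. SAUR15, known as SAUR-AC1 and long used as an auxin reporter, was at 2.18 and 0.940 CPM after ABA 1 h and 3 h and at 3.66 and 1.04 CPM after dehydration 1 h and 3 h, against 3.62 CPM in the control. It was therefore at the control's level after dehydration 1 h, with a log2 ratio of 0.02 (-0.14 to 0.17), and at -1.80 (-2.04 to -1.56) after dehydration 3 h. SAUR16, which acts with SAUR50 in cotyledon opening, was at 20.4, 17.0, 16.4 and 8.29 CPM, against 31.7 CPM in the control, and passed 2-fold only after dehydration 3 h (-1.93, interval -2.02 to -1.85). SAUR14 was at 10.6, 7.89, 16.2 and 8.54 CPM, against 15.5 CPM in the control, and passed 2-fold nowhere.

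The array from SAUR61 to SAUR68 on chromosome 1 was lower as a block. Genes of this SAUR63 group promote elongation of hypocotyls and stamen filaments. All 6 measured members were at least 2-fold lower in each of the 4 comparisons, and the 8 genes together summed to 18.7 CPM after ABA 1 h, 14.0 CPM after ABA 3 h, 19.5 CPM after dehydration 1 h and 9.22 CPM after dehydration 3 h, against 56.8 CPM in the control. The summed log2 ratios were -1.60 (-1.66 to -1.54), -2.02 (-2.08 to -1.96), -1.54 (-1.59 to -1.48) and -2.62 (-2.70 to -2.55).

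Within this block the genes lay closer together at 1 h of either treatment than after dehydration 3 h. After ABA 1 h their log2 ratios ran from -1.86 (SAUR65) to -1.40 (SAUR63). They ran from -2.27 (SAUR65) to -1.34 (SAUR62) after dehydration 1 h, and from -3.98 (SAUR62) to -1.45 (SAUR66) after dehydration 3 h. SAUR62, which has a known part in pollen tube growth, was at 4.02, 2.36, 4.79 and 0.769 CPM, against 12.1 CPM in the control. SAUR66 held a level plateau instead, at 3.84, 3.71, 4.28 and 4.15 CPM, against 11.3 CPM in the control.

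After dehydration 3 h the other measured genes of the block had ratios between those of SAUR62 and SAUR66. SAUR63 was at 4.08, 2.89, 3.91 and 1.78 CPM, against 10.8 CPM in the control, SAUR64 at 2.13, 1.581, 2.12 and 0.612 CPM, against 6.33 CPM, and SAUR68 at 2.79, 2.24, 2.98 and 1.498 CPM, against 9.52 CPM. SAUR65 was at 1.43, 1.04, 1.07 and 0.342 CPM, against 5.17 CPM in the control. SAUR63 and SAUR64 overlap genes on the opposite strand and carry the same reservation as SAUR13. SAUR75, the copy of SAUR62 on chromosome 5 at 97.0% identity, had 60, 44, 72 and 16 reads, against 220 in the control.

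The SAUR19 to SAUR24 array on chromosome 5, the group in which the inhibition of PP2C-D phosphatases was first shown, was lowest after dehydration 3 h. The 6 genes summed to 8.70 CPM after ABA 1 h, 5.39 CPM after ABA 3 h, 10.2 CPM after dehydration 1 h and 2.78 CPM after dehydration 3 h, against 18.5 CPM in the control. These copies may share reads, and how such reads were counted is not stated, so the sum may be affected too. The summed log2 ratios were -1.09 (-1.18 to -0.9996), -1.78 (-1.88 to -1.68), -0.85 (-0.93 to -0.77) and -2.73 (-2.87 to -2.60). At 1 h 2 of the 5 measured genes passed 2-fold after either treatment, and at 3 h all 5 did. SAUR23, which is in each of these counts, passed the filter on level only through the control.

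Single genes of that array had like courses with different sizes. SAUR20 was at 2.25, 1.48, 3.25 and 0.516 CPM, against 4.35 CPM in the control, and SAUR21 at 2.69, 1.61, 2.55 and 1.15 CPM, against 4.67 CPM. SAUR22 was at 1.30, 0.723, 1.19 and 0.174 CPM, against 2.56 CPM in the control, which is the lowest ratio of the array after dehydration 3 h (-3.88, interval -4.45 to -3.35). SAUR23 was at 0.865, 0.506, 0.931 and 0.393 CPM, against 2.52 CPM, and SAUR24 at 0.979, 0.599, 1.70 and 0.421 CPM, against 2.52 CPM. SAUR19 itself averaged under 1 CPM, with 103, 92, 119 and 23 reads, against 334 in the control.

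Each measured gene of the array stood lower after dehydration 3 h than after dehydration 1 h. For SAUR22 the log2 ratio of dehydration 3 h over dehydration 1 h was -2.77 (-3.36 to -2.23), the lowest of all 18876 measured genes with a ratio in that comparison. In the same comparison SAUR20 (-2.66, interval -2.99 to -2.34) and SAUR62 (-2.64, interval -2.91 to -2.38) were close to it.

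The array from SAUR29 to SAUR26 on chromosome 3, whose genes have a known part in growth at warm temperature, was also lower. Its 4 genes summed to 3.45, 1.87, 4.12 and 1.34 CPM, against 7.12 CPM in the control. The summed log2 ratios were -1.04 (-1.19 to -0.90), -1.93 (-2.10 to -1.76), -0.79 (-0.92 to -0.66) and -2.41 (-2.61 to -2.21). Both of its measured genes, SAUR26 and SAUR27, were at least 2-fold lower at 3 h of either treatment.

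**Figure D3:**
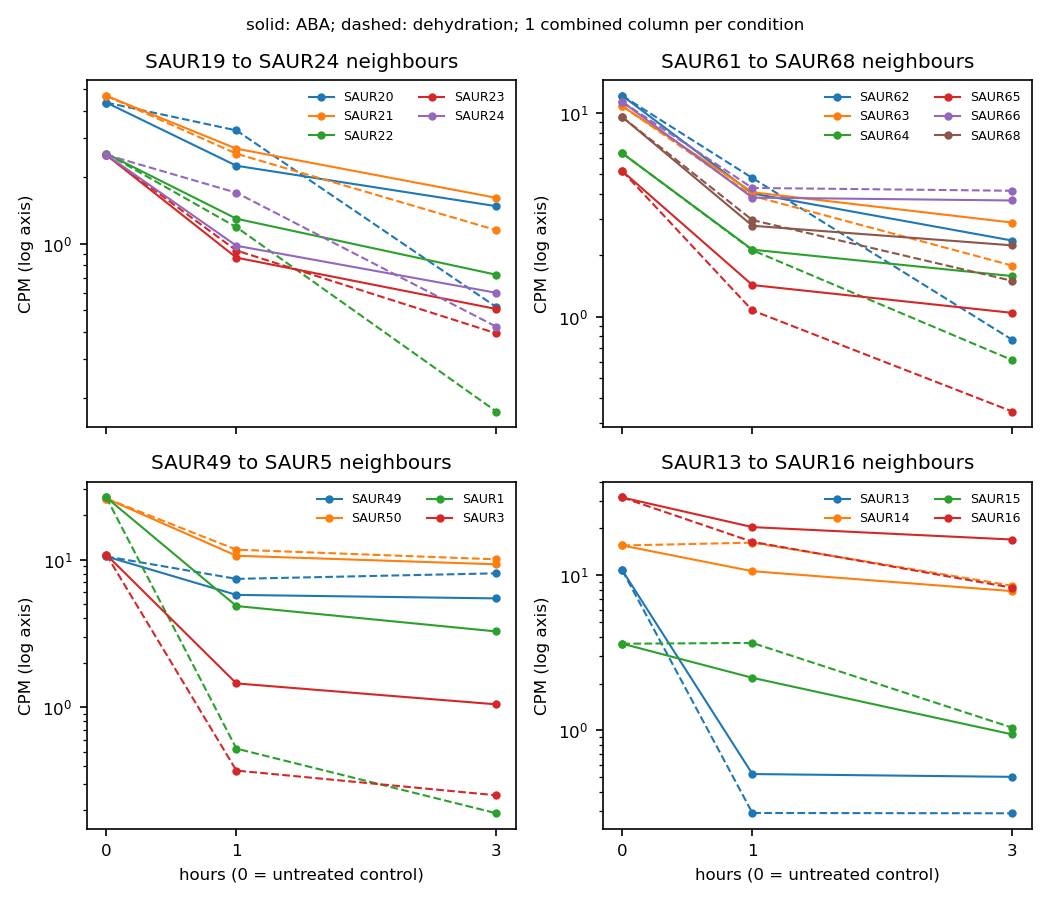
CPM (log axis) of the measured genes of 4 SAUR arrays at 0 h (control), 1 h and 3 h, with ABA as solid and dehydration as dashed lines and 1 combined column per point. The SAUR61 to SAUR68 genes lie closer together at 1 h of either treatment than at 3 h of dehydration. SAUR1, SAUR3 and SAUR13 are under 1 CPM at 1 h of dehydration. The SAUR19 to SAUR24 genes go lower between 1 h and 3 h of dehydration.

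The hexamer CACATG, read on both strands (CATGTG on the other), is a variant E-box that PIF factors and the brassinosteroid factor BES1 are known to bind. It occurred within 500 bases upstream of the annotated start (RefSeq, TAIR10.1) in 39 of 72 members, or 54.2%, against 21.3% of 22424 genes with a model. In arrays 30 of 38 members held it (78.9%), and outside arrays 9 of 34 (26.5%). Of the 38 members in arrays, 20 have their nearest relative in coding sequence within the same array, so these are not independent counts.

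Among measured members at least 2-fold lower after dehydration 3 h, 19 of 26 held CACATG (73.1%), against 25.5% of all genes that were lower there. It stood in 3 of the 12 members under 2-fold and in 1 of the 5 that were higher. For ABA 3 h the counts were 18 of 25 lower members and 0 of 5 higher ones, against 25.1% of all genes that were lower there. Of the lower members, 21 of 26 after dehydration 3 h and 21 of 25 after ABA 3 h lie in arrays. The hexamer stood in 78.9% of members in arrays and 26.5% outside, so direction and array membership cannot be told apart here. In some neighbours the letters around the match nearest to the start were also alike. Other members of the same arrays had different letters there, among them SAUR4, SAUR24, SAUR61 and SAUR62. SAUR20 and SAUR23 held no match, and both were at least 2-fold lower after dehydration 3 h. Examples of alike letters from 3 arrays are given as 30 bases on the strand of the gene, with the hexamer in capitals.
SAUR1: acaaggcataagCATGTGaacttcatccat
SAUR3: gatgagctaagcCATGTGagccagatggat
SAUR5: aatgagttaagcCATGTGagaagatatata
SAUR19: taaagacagaacCATGTGaactcttgctct
SAUR21: taaagacagaacCATGTGagctctgttcta
SAUR22: tagagacagaacCATGTGaactcttgctct
SAUR65: atttaataccccCACATGgtcatgtttctt
SAUR66: aattttgataccCACATGatcatgtcttct

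The hexamer begins 71, 70 and 69 bases before the annotated start in SAUR1, SAUR3 and SAUR5, which were all more than 2-fold lower in the 4 comparisons. In the SAUR19 group it begins 123 bases before the start of SAUR19, 42 before that of SAUR21 and 105 before that of SAUR22, and in the SAUR61 to SAUR68 block 104 before that of SAUR65 and 36 before that of SAUR66. SAUR65 and SAUR66 read CACATG on the strand of the gene and the other 6 read CATGTG, and their ratios after dehydration 3 h were -3.92 for SAUR65 and -1.45 for SAUR66. A match describes letters only, not binding.

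Over all 72 members, the other motifs searched were found about as often as in all genes, or less often. TGTCTC, the auxin response element, stood in 18.1% of members and 21.4% of all genes, and TGTCGG, its high-affinity form, in 8.33% and 8.15%. ACGTGGC or ACGTGTC, forms of the ABA response element, stood in 4.17% of members and 9.80% of all genes, and CACGTG, the G-box, which can overlap both of these, in 4.17% and 10.2%. CCGAC, the core of the dehydration-responsive element, stood in 11.1% of members and 22.4% of all genes. Each TGTCGG match also holds CCGAC on the other strand, so these counts are not separate. Of the 8 members with CCGAC, 6 held TGTCGG. All motifs were read on both strands in the same 500 bases. Among the 26 measured members lower after dehydration 3 h, TGTCGG stood in 4 (15.4%), against 7.19% of all genes lower there. It stood in 0 of the 12 members under 2-fold and in 0 of the 5 higher ones. TGTCTC stood in 23.1% of these lower members, against 20.4%, and the remaining motifs of this paragraph stood in them less often than in all lower genes.

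Outside arrays, SAUR78 was the largest loss of reads. It was at 59.5 CPM after ABA 1 h, 40.2 CPM after ABA 3 h, 27.8 CPM after dehydration 1 h and 13.5 CPM after dehydration 3 h, against 146 CPM in the control. The log2 ratios were -1.29 (-1.33 to -1.26), -1.86 (-1.90 to -1.82), -2.39 (-2.43 to -2.35) and -3.43 (-3.49 to -3.37), on 25627 reads in the control. SAUR78 was lower at 3 h than at 1 h of either treatment. Its relative SAUR77 was at 0.925, 1.22, 1.99 and 1.39 CPM, against 2.62 CPM in the control, and was lowest after ABA 1 h. SAUR76, which lies in a small array with SAUR70, was at 1.69, 1.23, 1.22 and 1.25 CPM, against 5.18 CPM in the control, at or beyond a log2 ratio of -1.62 in each column.

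A few members that were within 2-fold of the control after ABA, or above it, were lower after dehydration. SAUR57 was at 1.18 CPM after ABA 1 h, 2.11 CPM after ABA 3 h, 0.0209 CPM after dehydration 1 h and 0.0393 CPM after dehydration 3 h, against 1.80 CPM in the control. In reads these were 196, 409, 4 and 7, against 317 in the control, so its dehydration ratios of -6.43 (-8.31 to -5.06) and -5.52 (-6.85 to -4.46) are wide. SAUR46, the nearest relative of SAUR57 at 59.5% coding identity, had few reads, at 60, 103, 0 and 1, against 39 in the control. It stood above the control after ABA 3 h, with a log2 ratio of 1.26 (0.72 to 1.83), and had no read after dehydration 1 h, where the counting interval of its ratio to the control ended at -3.45.

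SAUR55 and SAUR36 also parted the treatments. SAUR55 was at 7.05 and 7.99 CPM after ABA 1 h and 3 h and at 1.96 and 3.03 CPM after dehydration 1 h and 3 h, against 7.67 CPM in the control. Its log2 ratios were -0.12 (-0.24 to -0.01) and 0.06 (-0.05 to 0.16) after ABA and -1.97 (-2.14 to -1.81) and -1.34 (-1.49 to -1.20) after dehydration. SAUR36, an ABA- and senescence-associated gene that promotes leaf senescence, was at 6.91 and 15.7 CPM after ABA 1 h and 3 h and at 4.93 and 3.94 CPM after dehydration 1 h and 3 h, against 11.3 CPM in the control. It therefore lay above the control after ABA 3 h, though by under 2-fold (0.48, interval 0.40 to 0.56), and below it by over 2-fold after dehydration 3 h (-1.52, interval -1.65 to -1.40).

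SAUR9, an inhibitor of PP2C-D phosphatases like SAUR19, went the other way. It was at 1.33 and 0.429 CPM after ABA 1 h and 3 h and at 2.50 and 3.74 CPM after dehydration 1 h and 3 h, against 2.99 CPM in the control. After ABA 3 h its log2 ratio was -2.80 (-3.15 to -2.47), and after dehydration 3 h it was 0.32 (0.16 to 0.49). SAUR37 was lower after both treatments, at 1.04, 0.842, 0.659 and 0.903 CPM, against 2.25 CPM in the control.

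SAUR30 had the highest ratio to the control of all measured members after ABA 3 h. It was at 17.4 CPM after ABA 1 h, 50.4 CPM after ABA 3 h, 14.2 CPM after dehydration 1 h and 13.3 CPM after dehydration 3 h, against 8.11 CPM in the control. The ABA ratios of 1.10 (1.01 to 1.19) and 2.64 (2.56 to 2.72) passed 2-fold, and the dehydration ratios of 0.81 (0.71 to 0.90) and 0.71 (0.62 to 0.81) did not.

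The SAUR41 group, whose members SAUR41, SAUR71 and SAUR72 promote cell expansion, was also above the control after ABA 3 h. SAUR72 was at 5.27, 13.4, 4.65 and 8.10 CPM, against 4.77 CPM in the control, with a ratio of 1.49 (1.38 to 1.60) after ABA 3 h and 0.76 (0.64 to 0.89) after dehydration 3 h. SAUR71 was at 3.12, 4.79, 0.832 and 2.36 CPM, against 1.32 CPM in the control, with ratios of 1.24 (1.01 to 1.47) and 1.85 (1.65 to 2.07) after ABA 1 h and 3 h. SAUR41 was at 5.48, 9.06, 4.77 and 9.52 CPM, against 4.48 CPM in the control, just past 2-fold after ABA 3 h (1.02, interval 0.89 to 1.14) and after dehydration 3 h (1.09, interval 0.97 to 1.21). The intervals of SAUR41 include 1, so counting error alone leaves its call undecided.

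SAUR34 and SAUR35, each the nearest relative of the other at 72.9% coding identity, were far above the control after dehydration. SAUR34 was at 0.180 CPM after ABA 1 h, 0.0775 CPM after ABA 3 h, 1.56 CPM after dehydration 1 h and 7.54 CPM after dehydration 3 h, against 0.114 CPM in the control. It had 1344 reads after dehydration 3 h against 20 in the control, which puts the log2 ratio at 6.05 (5.42 to 6.77). SAUR35 was at 0.6005, 1.75, 1.36 and 6.45 CPM, against 0.341 CPM in the control, with 4.24 (3.87 to 4.64) after dehydration 3 h and 2.36 (1.96 to 2.78) after ABA 3 h. SAUR35 thus passed 2-fold after both treatments at 3 h and SAUR34 only after dehydration.

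In the array from SAUR7 to SAUR12 on chromosome 2 the first genes were above the control after dehydration. SAUR7 was at 0.955, 0.625, 12.1 and 12.3 CPM, against 0.693 CPM in the control, with log2 ratios of 4.12 (3.86 to 4.40) and 4.15 (3.89 to 4.43) after dehydration 1 h and 3 h. SAUR6 was at 30.3, 24.8, 70.8 and 55.0 CPM, against 38.5 CPM in the control, and at 0.88 (0.84 to 0.92) and 0.52 (0.47 to 0.56) it did not reach 2-fold. SAUR6 and SAUR7 overlap on the same strand in the RefSeq annotation, so their reads may be split between them and both values are uncertain. SAUR7 also overlaps a gene on the opposite strand. SAUR12, the third gene, was at 1.26, 0.894, 1.31 and 1.02 CPM, against 1.85 CPM in the control.

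SAUR51 and SAUR52 are neighbours on chromosome 1 that lay on opposite sides of the control. SAUR51 was at 5.07, 3.24, 4.48 and 12.2 CPM, against 2.59 CPM in the control, and passed 2-fold after dehydration 3 h with 2.23 (2.09 to 2.38). SAUR52 was at 1.09, 0.785, 0.586 and 1.44 CPM, against 2.90 CPM in the control, with ratios from -2.31 after dehydration 1 h to -1.01 after dehydration 3 h. Between 1 h and 3 h of dehydration both stood higher at 3 h, by 1.44 (1.32 to 1.55) for SAUR51 and 1.30 (0.97 to 1.63) for SAUR52.

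**Figure D4:**
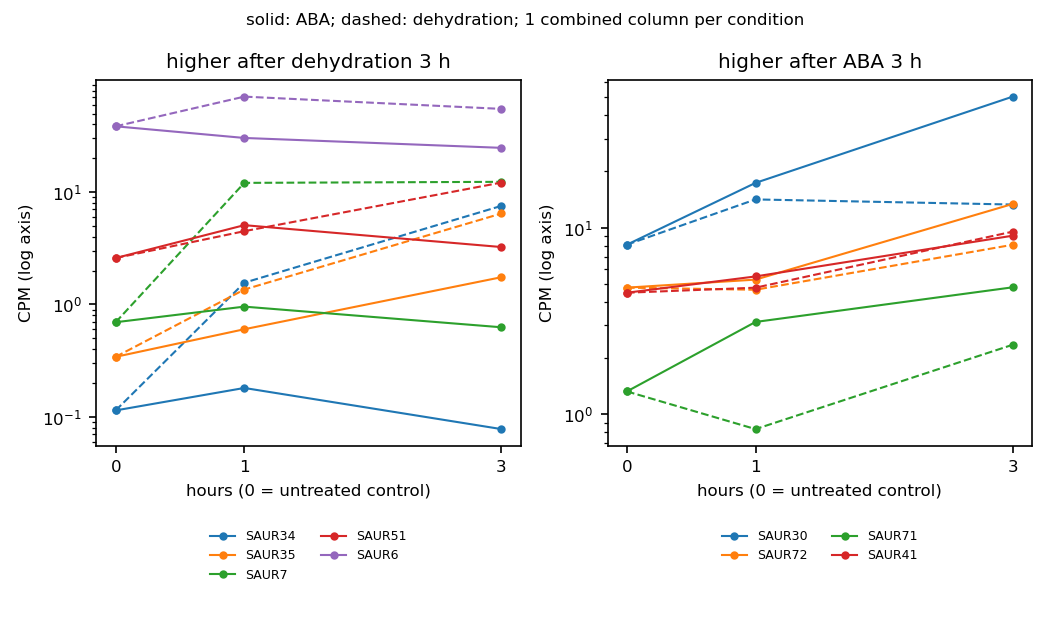
CPM (log axis) at 0 h (control), 1 h and 3 h of 5 SAUR genes with higher levels after dehydration 3 h (left) and 4 with higher levels after ABA 3 h (right), with ABA as solid and dehydration as dashed lines. SAUR34 reaches 7.54 CPM after dehydration 3 h against 0.114 CPM in the control, and SAUR30 reaches 50.4 CPM after ABA 3 h against 8.11 CPM in the control. The panels differ from the 2-fold calls. SAUR6 on the left was under 2-fold, and SAUR41 and SAUR35, past 2-fold at 3 h of both treatments, are each drawn in a single panel.

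Some abundant members moved little. SAUR32, which has been linked to the apical hook, was at 18.1, 24.2, 17.5 and 28.0 CPM, against 31.3 CPM in the control, within 2-fold throughout. SAUR59 was at 11.0, 21.9, 12.4 and 19.7 CPM, against 17.6 CPM in the control, below it at 1 h and above it at 3 h after both treatments. SAUR31 was at 12.9, 8.51, 15.6 and 21.1 CPM, against 13.1 CPM in the control, and overlaps a gene on the opposite strand.

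After ABA 3 h, set against ABA 1 h, 4 measured members were at least 2-fold higher and 3 lower, where 4.93% and 2.38% of all measured genes were, with a median of -0.45. Dehydration 3 h against dehydration 1 h gave 5 higher and 14 lower, against 5.42% and 1.37% of all measured genes, with a median of -0.32. With a floor of 5 mean CPM, ABA gave 3 higher and 0 lower of 18 and dehydration 1 higher and 2 lower, so the difference in counts rests on the less abundant members. In arrays 13 of 27 were lower at 3 h of dehydration and 2 higher, against 1 lower and none higher at 3 h of ABA. Whether this contrast exceeds the spread between replicates was not tested.

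Set directly against each other, dehydration and ABA left some members at very different levels. At 1 h 5 measured members were at least 2-fold higher after dehydration than after ABA and 6 lower, against 5.29% and 3.61% of all measured genes, with a median of -0.01. At 3 h 7 were higher and 14 lower, against 9.15% and 6.83% of all measured genes, with a median of -0.49. That median lay on the other side of 0 with a floor of 5 mean CPM (0.092, with 4 higher and 6 lower of 18) and with no filter (0.0048, with 19 higher and 21 lower of 70). The highest at 3 h were SAUR34 (6.60, interval 5.88 to 7.45), SAUR7 (4.30, interval 4.04 to 4.58) and SAUR9 (3.13, interval 2.79 to 3.47). The lowest were SAUR57 (-5.75, interval -7.07 to -4.69), SAUR1 (-4.09, interval -4.64 to -3.59) and SAUR22 (-2.06, interval -2.67 to -1.49).

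**Figure D5:**
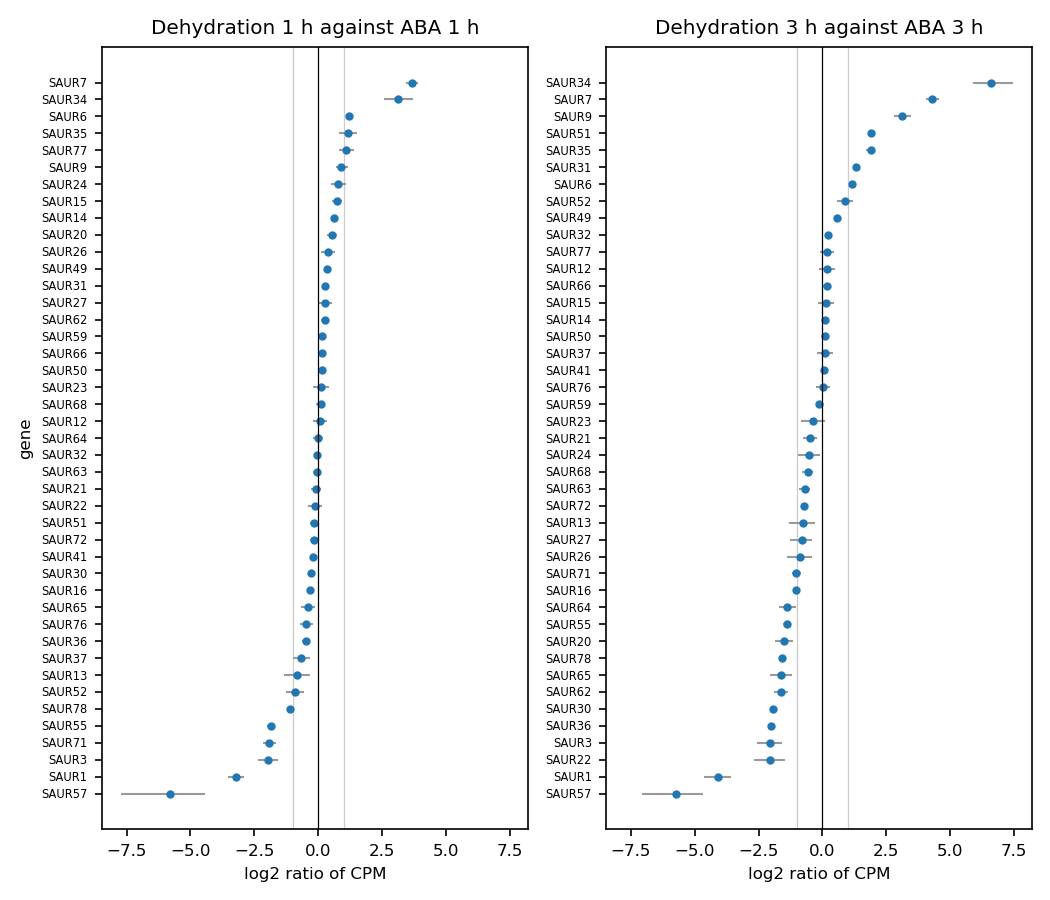
Log2 ratio of CPM of dehydration over ABA at 1 h (left) and 3 h (right) for the 43 measured SAUR genes, sorted by ratio, with bars as 95% counting intervals and grey lines at 2-fold. SAUR57 and SAUR1 stand lowest at both times, SAUR34 and SAUR7 highest, and the lower tail at 3 h holds more genes past 2-fold (14) than at 1 h (6).

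The 29 members under the limit had few reads, and SAUR47 had none in any column. With no filter on level, 31 of the 69 members with a ratio were at least 2-fold lower and 2 higher after ABA 1 h, and 41 of 70 lower and 7 higher after ABA 3 h. Dehydration 1 h gave 28 lower and 5 higher of 71, and dehydration 3 h 39 lower and 13 higher of 71. Over all genes with a ratio, the shares lower were 6.42%, 10.2%, 6.8% and 7.76% in the same order, and the shares higher 5.87%, 10.3%, 10% and 13.6%. Among these low members, SAUR48 had 52, 44, 83 and 627 reads, against 44 in the control, and SAUR69 36, 47, 126 and 410 reads, against 91 in the control. SAUR42, the nearest relative of SAUR48, had 8, 5, 27 and 91 reads, against 8 in the control. SAUR44 had 27, 58, 20 and 7 reads, against 194 in the control, and SAUR60 33, 9, 69 and 73 reads, against 225.

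Genes for the partners of SAUR proteins were past 2-fold in few cases, as was true of genes in general (all measured genes 4.46% to 10.4% higher and 5.24% to 7.88% lower). Of 9 measured PP2C clade D genes, none was 2-fold apart after ABA 1 h or ABA 3 h, 1 was higher and 2 lower after dehydration 1 h, and 1 was higher and 1 lower after dehydration 3 h. The lower one at both times was AT5G02760, a clade D phosphatase that suppresses leaf senescence, which was at 88.01, 103, 14.0 and 7.60 CPM, against 112 CPM in the control. The higher one was AT4G33920, at 32.2, 48.4, 74.7 and 69.0 CPM, against 30.3 CPM in the control. AT4G38520 passed 2-fold only after dehydration 1 h, at 42.9 CPM, against 95.5 CPM in the control.

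Of 9 measured plasma membrane proton pumps, the enzymes that these phosphatases hold back, only AHA8 was 2-fold apart from the control, at 14.9 CPM after dehydration 1 h against 6.22 CPM. The most abundant pumps stayed close: AHA1 was at 817, 1008, 695 and 640.3 CPM, against 727 CPM in the control, and AHA2 at 600.3, 564, 542 and 618 CPM, against 603 CPM in the control. Of 6 auxin receptors of the TIR1 and AFB family, only AFB1 passed 2-fold, at 20.8 CPM after ABA 3 h and 18.7 CPM after dehydration 3 h, against 43.2 CPM in the control.

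Of 9 genes for factors known to act on SAUR promoters, none passed 2-fold after ABA 1 h, and 1 was higher after ABA 3 h (all genes 9.02%). After dehydration 1 h 3 were lower, namely PIF3, PIF5 and BES1 (all genes 5.85%). After dehydration 3 h 1 was lower, BES1 (all genes 6.57%). PIF3 was at 107, 190 and 21.2 CPM after ABA 1 h, ABA 3 h and dehydration 1 h and at 60.5 CPM after dehydration 3 h, against 58.9 CPM in the control, so it was above 2-fold after ABA 3 h and below it after dehydration 1 h. BES1 was at 286, 335, 115 and 123 CPM, against 313 CPM in the control. The auxin response factors ARF6, ARF7, ARF8 and ARF19 were within 2-fold of the control in each column.

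Markers of shoot and root were both present, as the label of whole seedlings requires, and they also differed between columns. The 4 shoot markers in the table summed to 7683 CPM after ABA 1 h, 4819 CPM after ABA 3 h, 6541 CPM after dehydration 1 h and 4968 CPM after dehydration 3 h, against 11133 CPM in the control, and 0, 2, 0 and 3 of them were at least 2-fold lower. The 7 root markers summed to 118, 95.1, 85.6 and 54.8 CPM, against 122 CPM in the control, with 1, 2, 4 and 2 at least 2-fold lower. The 3 markers of dividing cells were within 2-fold of the control, and of 3 guard cell markers 1, MYB60, was lower after ABA. Both seed markers in the table were under the limit for measured genes. Their part in the SAUR results was not tested. Total reads per column ran from 163762670 (ABA 1 h) to 204315702 (ABA 3 h), with 180444972 in the control.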

How the data were processed

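RNA-seq of 15 seedling libraries (3 biological replicates in each of 5 conditions) was used. Per the labels' protocols, stranded polyA libraries were sequenced as single reads and the replicates of a condition were pooled into a well. Read counts, with no normalization, and FPKM values were deposited by the authors as separate tables, which per the file headers hold a single column for each condition. The submitters' processing notes name TopHat2 (2.0.8), DESeq2, Cuffdiff and Cufflinks (2.1.1), and the build TAIR10. What each did, which program counted, whether strand was used and how replicates were combined is not stated there.

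With 1 column per condition the planned ratios were described without tests. CPM used TMM factors from edgeR 4.0.16 (R 4.3.3) over all rows. Counts below 3 were set to 3, and a gene with no more than 3 on both sides got no ratio. A ratio that rests on 1 or 2 reads is left out of the text. A gene was measured at a mean of at least 1 CPM and counted as higher or lower from 2-fold on. Counting intervals are exact (Clopper-Pearson, 95%, SciPy 1.17.1). Both the intervals and the floor describe counting error alone, because each condition has 1 combined column. The protocols mention no molecular identifiers, so duplicate reads cannot be told from separate molecules and the intervals may be too narrow. The floor of 3 reads equals 0.0157 CPM after dehydration 1 h. One zero count beside a positive FPKM, in a gene outside the family, was treated as missing.

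Every member with a mean of at least 1 CPM could be named. Full values were given for the 5 highest and 5 lowest members per comparison with control among those reaching 10 CPM on either side, and for the SAUR1, SAUR13, SAUR19 and SAUR61 arrays. Other members named were chosen after their values were seen. The members, the gene lists and the motifs were chosen with earlier results of these data known. Sequences, neighbours and coding identity come from RefSeq (TAIR10.1), where locus codes matched 22432 rows. Since its name differs from the authors' build, no coordinates are given. The scripts were tested on simulated counts.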

Additional observations from a re-analysis of the deposited data

How the results depend on the processing

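No paired analysis was possible because each condition has 1 combined column, and for the same reason no replicate could be left out. RLE, upper-quartile and total-count scaling and log2(FPKM + 0.1) left most members on their side of 2-fold; with log2(FPKM + 1) 18 of 21, 27 of 30, 21 of 22 and 29 of 31 calls against the control were kept, and 14 of 19 for dehydration 3 h over 1 h. Total-count scaling moved the median of all genes by 0.14 log2 for dehydration 1 h, and the SAUR median there to -0.70. It moved the median of all genes by -0.11 for dehydration 3 h over 1 h and by -0.10 for ABA 3 h over 1 h, where upper-quartile scaling gave the same shift to 2 decimals.

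The filter on level mattered most. With a mean of at least 5 CPM, members at least 2-fold higher than the control numbered 1 and 3 at 1 h and 3 h of ABA and 1 and 3 at 1 h and 3 h of dehydration, and lower ones 4, 4, 6 and 7, with medians of -0.59, -0.50, -0.51 and -0.27. Between treatments and times, higher and lower counts under it were 2 and 3 for dehydration 1 h over ABA 1 h, 4 and 6 for dehydration 3 h over ABA 3 h (median 0.092) and 1 and 2 for dehydration 3 h over 1 h (median -0.0075). For ABA 3 h over 1 h no member was lower and the median was -0.14. This setting leaves 18 members.

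Without a filter, 31 members were lower at 1 h of ABA and 41 at 3 h, and 5 were higher at 1 h of dehydration and 13 at 3 h (median -1.31). It gave 10 lower for ABA 3 h over 1 h, 10 higher and 22 lower for dehydration 3 h over 1 h, 11 higher for dehydration 1 h over ABA 1 h, and 19 higher for dehydration 3 h over ABA 3 h (median 0.0048). With log2(FPKM + 1) the medians were -1.17 after ABA 3 h and -1.32 after dehydration 3 h, 3 members were higher for dehydration 1 h over ABA 1 h, and 0 lower for ABA 3 h over 1 h. The other 130 values stayed within 1.5 times the count or, for medians, between the median lower and median upper bound of the single-gene counting intervals. Those bounds are not an interval of the median itself. Depth limits the members with few reads most, and precision between replicates is unknown.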

Other observations

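In coding sequence, 21 pairs of members were each other's nearest relative, 6 of them within an array. Some pairs had like courses although they lie apart in the genome. SAUR42 and SAUR48, at 54.6% identity, had log2 ratios of 3.49 (interval 2.45 to 4.74) and 3.81 (3.37 to 4.29) after dehydration 3 h over control, both from low levels. SAUR62 and SAUR75 had -3.98 (-4.24 to -3.73) and -3.80 (-4.63 to -3.07) in the same comparison, and at 97.0% identity they may share reads.

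The genes of other close pairs lay apart after dehydration 3 h. SAUR51 and its nearest relative SAUR54, at 77.7% identity, had 2.23 (2.09 to 2.38) and -1.31 (-1.78 to -0.85) after dehydration 3 h. Their neighbours SAUR52 and SAUR53, at 81.9% identity, had -1.01 (-1.23 to -0.79) and 1.08 (0.77 to 1.40). Each of these neighbouring pairs on chromosome 1 thus held 1 gene above and 1 gene below the control. SAUR50 and SAUR8, at 82.9% identity, had -1.37 (-1.45 to -1.29) and 0.05 (-0.40 to 0.50), so SAUR8 lay near the control. SAUR53, SAUR54 and SAUR8 averaged under 1 CPM and are not among the measured members. These pairs were chosen after their values were seen, and no replicate check is possible.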
